A study of Mus musculus with 24 samples.

Results

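The 9 genes described here are Klrk1, Klrd1, Klrc1, Klrc2, Klrb1c, Klre1, Klrg1, Ncr1 and Nkg7, a named set known mainly from natural killer (NK) cells and read in libraries of sorted T cells. They were taken by gene symbol from the 35817 genes of the deposited tables, and all 9 had enough reads to be tested in the CD8+, the CD4+ and the joint fit. The series holds 24 RNA libraries of mouse spleen T cells in 8 groups of 3, which cross the cell type (CD8+ or CD4+), the donor genotype (Cat-Tg or WT) and the time (pre-tx or post-tx). Cat-Tg mice carry an N-terminally truncated human β-catenin in a transgene vector that drives expression in T cells. By the methods, several founder lines were made in FVB embryos, bred to C57BL/6 and kept heterozygous, and adult donors were matched for age and sex. WT donors were C57BL/6 mice without the transgene. Pre-tx cells were sorted from fresh splenocytes of donors. Post-tx cells were sorted on day 7 as H-2Kb+ donor cells from the spleens of lethally irradiated BALB/c recipients, which had received Cat-Tg or WT CD4+ and CD8+ T cells in equal numbers together with T cell-depleted WT bone marrow. All post-tx groups therefore share the irradiated allogeneic host and the WT marrow. Cat-Tg and WT libraries carry different name series in the labels, so the library series and the genotype cannot be told apart.

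NK cell receptors set the threshold for killing by adding activating and inhibitory signals, and T cells acquire several of them when they turn into effector or memory cells. Klrd1 encodes CD94, which is carried to the surface as a heterodimer with NKG2A (Klrc1, inhibitory) or NKG2C (Klrc2, activating) and reads the non-classical MHC molecule Qa-1. Klrk1 encodes NKG2D, an activating receptor for stress-induced ligands that signals through the adaptor DAP10. Klrg1 encodes an inhibitory receptor for cadherins that marks effector CD8+ T cells, Klrb1c encodes NK1.1, and Klre1 encodes a lectin-like receptor that pairs with Klri chains. Ncr1 encodes NKp46, among the most NK-restricted surface receptors. Nkg7 is no receptor but a membrane protein of cytotoxic granules, so the set is described below gene by gene.

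Of the 9 genes, 7 are lectin-like genes on chromosome 6 and 2 lie on chromosome 7. In the GENCODE M21 annotation of GRCm38, Klrg1 spans chr6:122270596-122282882 and Klrb1c chr6:128778485-128789215, both on the minus strand. Klre1 (chr6:129577905-129585827) and Klrd1 (chr6:129591782-129598775) lie on the plus strand, followed on the minus strand by Klrk1 (chr6:129610323-129623864), Klrc2 (chr6:129647496-129660689) and Klrc1 (chr6:129666015-129678973). Ncr1 spans chr7:4337724-4345164 and Nkg7 chr7:43437073-43438249, both on the plus strand. The Klrc genes are close copies. Words of 31 bases were compared among the 9 genes and Klrc3 only, not with other related genes such as Klrb1b. No word of the members outside the Klrc genes occurs in another of these genes. Of the 2011 words in the Klrc1 transcripts, 53.1% also occur in another Klrc gene, against 21.6% of 5927 words for Klrc2. How reads were divided between Klrc1 and Klrc2 is therefore uncertain, and Klrc1 was also tested with the counts of Klrc1, Klrc2 and Klrc3 summed.

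Promoter sequences from RefSeq (GRCm38.p6, 250 bases before to 50 after the start) were on hand for 7 of the 9 genes, all but Klrd1 and Klrg1. They were searched on both strands for the core letters bound by TCF/LEF factors, the DNA-binding partners of β-catenin (CTTTGA), and for the core letters bound by T-box factors such as T-bet and Eomes (GGTGTGA). The TCF/LEF letters stood in 1 of the 10 promoters of these genes, that of Klrk1, and in 16% of all 32851 promoters in the table. The T-box letters stood in 1 of the 10, that of Nkg7, and in 3.98% of all promoters. The promoters of Klrk1 and Nkg7 are shown because they hold these letters, in capitals, and that of Klrc1 because Klrc1 had the largest change between pre-tx and post-tx libraries among the 9 genes (WT CD8+); it holds neither motif. They run 5′ to 3′ on the strand of the gene, at chr6:129623815-129624114 (Klrk1, minus), chr7:43436888-43437187 (Nkg7, plus) and chr6:129678924-129679223 (Klrc1, minus).
Klrk1: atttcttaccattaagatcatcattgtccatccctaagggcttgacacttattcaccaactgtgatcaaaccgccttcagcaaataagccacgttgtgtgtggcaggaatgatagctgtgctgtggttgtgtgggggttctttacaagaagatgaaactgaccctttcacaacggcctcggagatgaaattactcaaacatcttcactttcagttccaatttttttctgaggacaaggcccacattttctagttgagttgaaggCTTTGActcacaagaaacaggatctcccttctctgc
Nkg7: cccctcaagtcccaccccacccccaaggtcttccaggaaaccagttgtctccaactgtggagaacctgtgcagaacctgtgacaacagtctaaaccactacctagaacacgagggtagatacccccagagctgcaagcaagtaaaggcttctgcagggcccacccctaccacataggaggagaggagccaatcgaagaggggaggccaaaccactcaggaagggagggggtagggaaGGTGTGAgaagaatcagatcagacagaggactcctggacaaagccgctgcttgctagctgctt
Klrc1: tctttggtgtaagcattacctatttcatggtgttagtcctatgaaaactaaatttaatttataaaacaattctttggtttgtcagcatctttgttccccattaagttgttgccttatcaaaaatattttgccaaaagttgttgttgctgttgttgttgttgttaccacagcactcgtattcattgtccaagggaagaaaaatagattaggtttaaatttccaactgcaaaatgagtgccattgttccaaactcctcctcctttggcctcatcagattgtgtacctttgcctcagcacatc
The letters in Klrk1 lie 14 to 19 bases past the start, and those in Nkg7 at positions -13 to -7 relative to it. A match is a description of the letters only.

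By the methods each group holds 3 mice. Total estimated counts ranged from 11135713 to 50519825 per library, and 3 counts corresponded to between 0.0516 and 0.288 CPM. CPM are counts scaled to a common library size with TMM factors, and libraries of a group are given in the order of their replicate numbers, 1 to 3. The coreceptors did not bear out all labels. Cd8a made up 99.3 to 99.9% of Cd8a plus Cd4 in Cat-Tg CD8+ pre-tx libraries and 1.27 to 3.39% in Cat-Tg CD4+ pre-tx libraries. In the pre-tx libraries with WT CD8+ and WT CD4+ labels the share was 50 to 63.9% and 52.4 to 65.4%, so both groups held both coreceptors in similar amounts. The same 6 libraries had the lowest sums of 12 T cell markers and the highest sums of 13 B cell markers. T cell sums were 1910 to 2090 CPM (CD8+) and 2570 to 3290 CPM (CD4+) there, against 5390 to 15500 CPM in the other libraries, and B cell sums were 11600 to 15500 CPM, against 500 to 3310 CPM. The called differences from WT pre-tx libraries are therefore also given below per T cell marker count (T cell scaling), in which the library size is the summed count of the 12 T cell markers, with the further genes of the 9 that this scaling called. List counts are given under TMM scaling. This scaling moved the median log2 fold change of all genes tested from -0.07 to -2.26 for Cat-Tg against WT CD8+ pre-tx and from 0.03 to -1.53 for CD4+ pre-tx. Mouse Ctnnb1, the endogenous β-catenin gene, ranged from 40.4 to 173 CPM in Cat-Tg and from 8.08 to 144 CPM in WT libraries. The groups overlapped, and whether reads of the human transgene enter these counts was not tested.

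**Figure D1:**
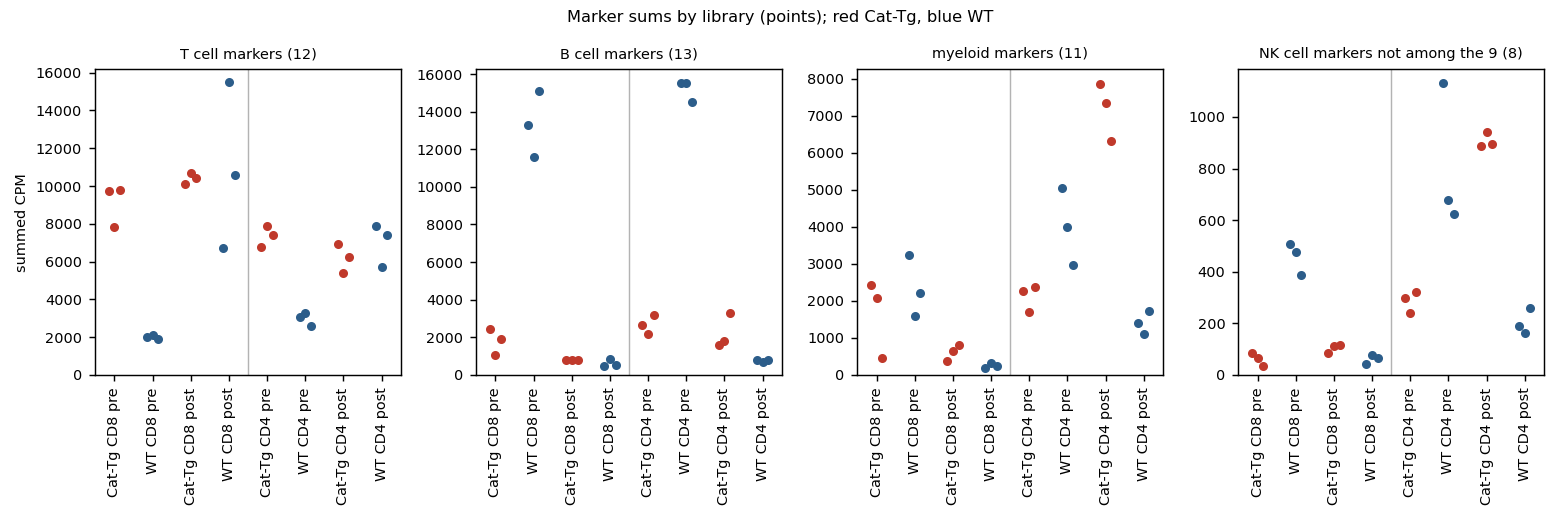
Summed CPM of marker genes for T cells, B cells, myeloid cells and NK cells (the 8 NK markers that are not among the 9 genes), 1 point per library, 3 libraries per group, red Cat-Tg and blue WT. The 6 libraries labelled WT pre-tx have the lowest T cell sums (1910 to 3290 CPM) and the highest B cell sums (11600 to 15500 CPM).

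Per transcript length, Nkg7 was the most abundant of the 9 genes in every group, with mean TPM, a level corrected for transcript length, from 200 ± 26 in Cat-Tg CD4+ pre-tx to 8160 ± 244 in Cat-Tg CD8+ post-tx (SD, n = 3). Klrd1 had the second highest mean TPM in all 8 groups and reached 505 ± 156 TPM in Cat-Tg CD8+ pre-tx. Klrc2 had mean TPM between 1.35 and 4.55, and Ncr1 between 0.64 and 28.1.

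By mean CPM, WT CD8+ post-tx libraries stood highest for Klrk1, Klrd1, Klrc1, Klrc2, Klrg1 and Nkg7, but for each of these genes they overlapped the group that came next. For Klrk1, Klrc1, Klrg1 and Nkg7 that next group was Cat-Tg CD8+ post-tx, which did not overlap the third. Klrb1c was highest in Cat-Tg CD4+ pre-tx (53.7 ± 16.8 CPM), followed by the groups labelled WT CD8+ pre-tx (39 ± 21.3 CPM), which overlapped it, and WT CD4+ pre-tx (32.4 ± 1.13 CPM), which did not. Ncr1 was highest in the groups labelled WT CD8+ pre-tx (26.6 ± 16.9 CPM) and WT CD4+ pre-tx (13.5 ± 5.88 CPM). Klre1 was low everywhere, with group means from 1.94 ± 0.381 CPM in Cat-Tg CD4+ post-tx to 12 ± 1.43 CPM in Cat-Tg CD8+ post-tx. The 9 genes thus fell into different orders of the groups, with a set led by post-tx CD8+ libraries and another, of Klrb1c and Ncr1, led by pre-tx libraries. In bulk RNA, fewer cells of a type and less RNA per cell cannot be told apart.

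**Figure D2:**
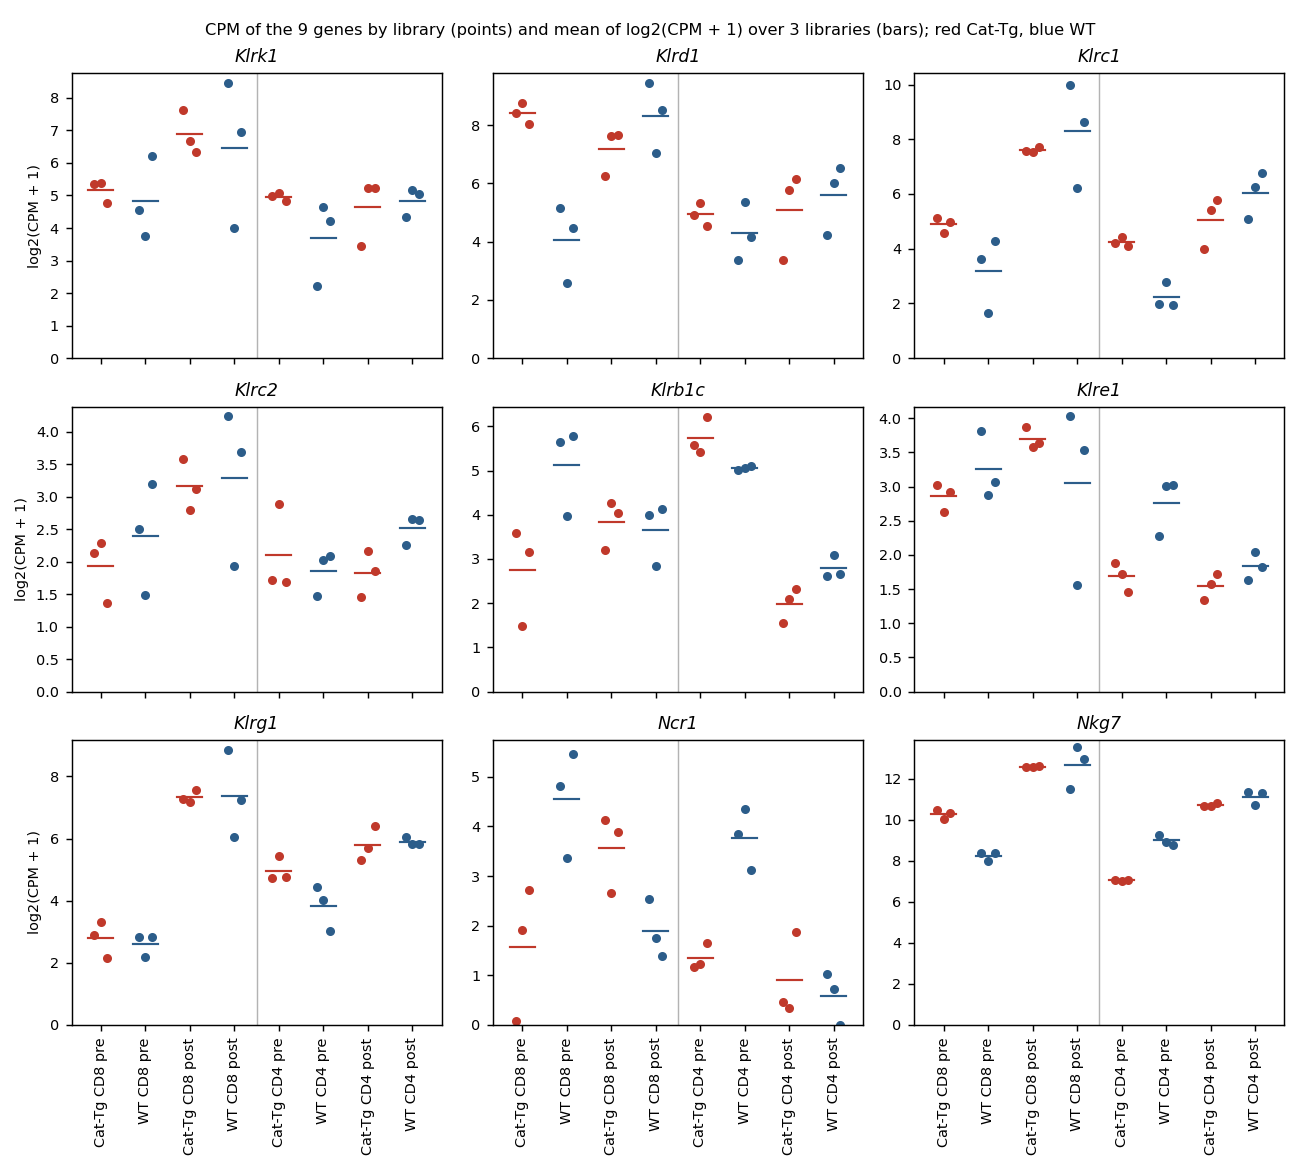
Levels of the 9 genes as log2(CPM + 1), 1 point per library and a bar at the mean of 3 libraries, for the 8 groups (CD8+ left of the grey line, CD4+ right; red Cat-Tg, blue WT). Nkg7 is at 6030 to 6230 CPM in the 3 Cat-Tg CD8+ post-tx libraries, and Klrd1 is at 266 to 429 CPM in Cat-Tg CD8+ pre-tx libraries.

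Before transplantation, the comparison of Cat-Tg with WT CD8+ libraries asks how the transgenic donors' cells differ at the start. A difference is called here when the Benjamini-Hochberg adjusted p of edgeR's quasi-likelihood test over all genes is at most 0.05 and the log2 fold change is at least 1 in size. Klrd1 and Nkg7 were higher and Klrb1c was lower in Cat-Tg libraries. Klrd1, the CD94 chain, stood at 339, 429 and 266 CPM in Cat-Tg and at 34.4, 5.01 and 21.3 CPM in those labelled WT CD8+. All Cat-Tg libraries were above all WT libraries, with a log2 difference of 4.09 (standard error, SE, 0.726, adjusted p = 0.00279). Nkg7 stood at 1430, 1030 and 1300 CPM against 326, 255 and 331 CPM, again without overlap (2.07, SE 0.42, adjusted p = 0.00647). Klrb1c, the NK1.1 gene, stood at 11.1, 1.8 and 7.85 CPM against 48.9, 14.6 and 53.7 CPM (-2.49, SE 0.722, adjusted p = 0.0417). Of all 15960 genes tested, 4.49% were called higher and 4.48% lower in this comparison, beside 2 and 1 of the 9 genes. Without overlap, 16.6% of all genes were higher and 16.8% lower in Cat-Tg. Ncr1 was at 0.0498, 2.74 and 5.57 CPM in Cat-Tg and at 27.2, 9.34 and 43.2 CPM in WT, without overlap, and missed the threshold by edgeR (-3.24, SE 1.05, adjusted p = 0.0661), but was called lower by DESeq2 (adjusted p = 0.00509), limma-voom (adjusted p = 0.0285) and edgeR without the filter on low counts (adjusted p = 0.00588). The Cat-Tg replicate 1 value is below that of 3 counts. Klrc1 was at 33.9, 23 and 30.1 against 11.2, 2.13 and 18.6 CPM (1.45, SE 0.744, adjusted p = 0.261). Klrk1, Klrc2, Klre1 and Klrg1 had overlapping groups and adjusted p of 0.659 or more. Their levels lay between 1.57 and 40.8 CPM in Cat-Tg and between 1.79 and 72.7 CPM in WT.

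These values depended on how the libraries labelled WT were scaled. Under T cell scaling Klrd1 was still higher in Cat-Tg (1.93, adjusted p = 0.0451) and Klrb1c lower (-4.78, adjusted p = 4.53e-04), while Nkg7 was no longer called and its sign turned (-0.16, adjusted p = 0.618), as did that of Klrc1 (-0.79, adjusted p = 0.414). Ncr1 was then called lower (-5.46, adjusted p = 0.00225), as were Klrc2 (-2.89, adjusted p = 0.0225), Klre1 (-2.70, adjusted p = 0.0152) and Klrg1 (-1.89, adjusted p = 0.0444), which TMM scaling did not call. Klrk1 was at -2.21 (adjusted p = 0.0633) and was not called. Under this scaling 58.2% of all genes tested were called lower and 0.282% higher, so 5 lower of the 9 was near the share of all genes. The 8 NK cell markers outside the set summed to 33.9 to 83.6 CPM in Cat-Tg and 386 to 507 CPM in WT libraries of this comparison, most of it from Tyrobp and Fcer1g, which myeloid cells also express. The call of Klrb1c was lost when any of 5 of the 6 libraries was left out, each but WT replicate 2 (log2 fold change -3.07 to -2.04 over the 6 fits, adjusted p up to 0.116). The part of other cell types in these differences was not tested.

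The next comparison asks how each genotype's CD8+ libraries, as labelled, differed between day 7 post-tx and pre-tx. In both genotypes Klrg1, Klrc1 and Nkg7 were higher post-tx, and Klrd1 was also higher post-tx in WT. Klrg1, the inhibitory cadherin receptor, was at 6.47, 8.9 and 3.46 CPM in Cat-Tg pre-tx and at 154, 142 and 186 CPM in Cat-Tg post-tx (4.69, SE 0.662, adjusted p = 0.000401, a 25.9-fold change). It was at 6.11, 3.55 and 6.09 CPM in libraries labelled WT CD8+ pre-tx and at 456, 65.7 and 151 CPM in WT post-tx (5.52, SE 0.688, adjusted p = 5.21e-05). No pre-tx library reached the lowest post-tx library in either genotype. Of all genes, 24.1% in Cat-Tg and 12.9% in WT were likewise higher post-tx without overlap. Klrc1, the NKG2A gene, rose to 191, 183 and 208 CPM in Cat-Tg (2.76, SE 0.776, adjusted p = 0.0295) and to 1020, 73.9 and 396 CPM in WT (5.64, SE 0.887, adjusted p = 0.000339). Nkg7 rose to 6050, 6030 and 6230 CPM in Cat-Tg (2.30, SE 0.424, adjusted p = 0.00285) and to 2890, 12000 and 8020 CPM in WT (4.77, SE 0.474, adjusted p = 1.04e-05). In Cat-Tg 3 of the 9 genes were called higher, beside 8.72% of all genes, and 0 lower, beside 5.23%. In WT 4 were called higher and 1 lower, beside 13.1% and 10.4% of all genes.

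Klrd1 passed the threshold in WT and not in Cat-Tg. In WT it went from 34.4, 5.01 and 21.3 CPM to 696, 131 and 364 CPM (4.38, SE 0.736, adjusted p = 0.000571). In Cat-Tg, where it started at 266 to 429 CPM, it stood at 75.5, 197 and 200 CPM post-tx, without overlap with pre-tx but short of the threshold (-1.12, SE 0.648, adjusted p = 0.226). Of all genes, 25.1% were lower post-tx without overlap in Cat-Tg. Ncr1, the NKp46 gene, fell in WT to 4.8, 2.39 and 1.63 CPM (-3.08, SE 1.04, adjusted p = 0.0428) and was at 16.6, 5.27 and 13.8 CPM in Cat-Tg post-tx. Klrk1, the NKG2D gene, was at 197, 102 and 79.7 CPM in Cat-Tg post-tx (1.84, SE 0.822, adjusted p = 0.129) and at 348, 15.1 and 124 CPM in WT post-tx (2.28, SE 0.835, adjusted p = 0.0598; DESeq2 adjusted p = 0.0109). Klrb1c, Klrc2 and Klre1 were not called in either genotype and reached at most 18.3 CPM post-tx. Across the 9 genes the median log2 fold change was 1.84 in Cat-Tg and 2.28 in WT, against -0.26 and -0.23 over all genes tested.

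Under T cell scaling the changes of Klrg1 and Nkg7 in both genotypes, and of Klrd1, Klrc1 and Ncr1 in WT, stayed past the threshold with the same sign, though the WT changes of the rising genes shrank (Nkg7 to 2.10, Klrd1 to 2.25). In WT it also called Klrb1c (-3.83, adjusted p = 0.00126) and Klre1 (-1.98, adjusted p = 0.0477) lower, beside 63.3% of all genes called lower and 1.3% higher. The call of Klrc1 in Cat-Tg was lost under T cell scaling (2.56, adjusted p = 0.0729), without the filter on low counts and on leaving out any of the 6 libraries (2.60 to 2.84, adjusted p = 0.0504 to 0.116). With Klrc1, Klrc2 and Klrc3 summed it held (2.68, adjusted p = 0.0283). The call of Ncr1 in WT was lost without pre-tx replicate 1 or 3 or post-tx replicate 2 or 3 (-3.14 to -2.56 in these fits). WT CD8+ post-tx replicate 2 stood apart from the other two libraries of its group. It had the lowest level of Klrk1, Klrd1, Klrc1, Klrc2, Klrb1c, Klre1 and Klrg1 and the highest of Nkg7. Its T cell marker sum was 15500 CPM against 6710 and 10600 CPM, and its Ctnnb1 level 8.08 CPM against 62.6 and 87.9 CPM. Without it, Klrk1 was called higher in WT post-tx (2.62, SE 0.631, adjusted p = 0.00727), as it also was without pre-tx replicate 3 (3.30, adjusted p = 0.0253). Under T cell scaling the Klrk1 difference in WT was 0.22 (SE 0.934, adjusted p = 0.837).

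After transplantation the comparison of Cat-Tg with WT CD8+ libraries asks whether the genotypes differ as effector cells in the host. By edgeR's quasi-likelihood test 0 of the 9 genes were called, and DESeq2 and limma-voom also called 0, with 1 gene (Klrd1) at an unadjusted p under 0.05. Of all genes, 266 of 15960 were called, a count that was 6 without Cat-Tg replicate 1, 5 without Cat-Tg replicate 2, 550 without Cat-Tg replicate 3, 406 without WT replicate 1, 571 without WT replicate 2 and 287 without WT replicate 3. Klrd1 (75.5, 197 and 200 against 696, 131 and 364 CPM) differed by -1.41 on the log2 scale (SE 0.652, adjusted p = 0.254) and Klrc1 (191, 183 and 208 against 1020, 73.9 and 396 CPM) by -1.43 (SE 0.74, adjusted p = 0.306). Ncr1 was the gene whose groups did not overlap, at 16.6, 5.27 and 13.8 against 4.8, 2.39 and 1.63 CPM (1.95, SE 0.999, adjusted p = 0.301). Of all genes, 13.9% were higher and 11.5% lower in Cat-Tg without overlap. For Nkg7 the difference was -0.41 (SE 0.405, adjusted p = 0.607), and it became 0.17 without WT replicate 2. The spread of the WT group was wide: its SD was 484 CPM for Klrc1, against 12.9 CPM in Cat-Tg.

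An interaction term asked whether the Cat-Tg effect differed between the times. It did for Klrd1, by -5.5 on the log2 scale (SE 0.967, adjusted p = 0.00241), for Nkg7 by -2.48 (SE 0.58, adjusted p = 0.0132) and for Ncr1 by 5.2 (SE 1.44, adjusted p = 0.0311). Klrd1 and Nkg7 thus had a higher Cat-Tg to WT ratio pre-tx than post-tx and Ncr1 a lower one. Of all genes, 4.77% had a negative and 5.93% a positive called interaction. Under T cell scaling the differences for Klrd1 (-3.63, adjusted p = 0.0174) and Ncr1 (7.24, adjusted p = 0.0028) stayed, that for Nkg7 became 0.00, and Klrb1c was also called (4.71, adjusted p = 0.00332), beside 37% of all genes with a positive and 0.47% with a negative call. DESeq2 also called Klrc1 (-2.97, adjusted p = 0.0242). The call of Ncr1 was lost in 5 of 12 fits with a library left out (Cat-Tg pre-tx replicate 2 or post-tx replicate 1, WT pre-tx replicate 1 or 3, or WT post-tx replicate 3, 4.66 to 5.17, adjusted p up to 0.0745).

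Among CD4+ libraries before transplantation, Klrc1 and Klrg1 were higher and Nkg7 was lower in Cat-Tg than in libraries labelled WT. Klrc1 was at 17.4, 20.5 and 16.1 CPM against 2.92, 5.93 and 2.88 CPM (2.43, SE 0.491, adjusted p = 0.00249). Klrg1 was at 25.3, 42.2 and 26.1 CPM against 20.5, 15.4 and 7.1 CPM (1.35, SE 0.385, adjusted p = 0.0199). Nkg7 was at 132, 127 and 132 CPM against 611, 483 and 439 CPM, the opposite direction to CD8+ libraries under the same TMM scaling (-1.73, SE 0.215, adjusted p = 7.78e-05). None of these genes had overlapping groups. Of all genes, 17.8% were higher and 20.3% lower in Cat-Tg without overlap. Of the 17227 genes tested, 12.3% were called higher and 5.91% lower, beside 2 and 1 of the 9. Klrb1c, at 46.4, 41.8 and 73 against 31.2, 32.4 and 33.4 CPM (0.97, SE 0.344, adjusted p = 0.0569), and Ncr1, at 1.24, 1.35 and 2.16 against 13.4, 19.4 and 7.65 CPM (-2.86, SE 1.07, adjusted p = 0.072), did not overlap and missed the threshold by edgeR, though DESeq2 (adjusted p = 0.00698) and limma-voom (adjusted p = 0.0239) called Ncr1 lower. Klrk1, at 30.4, 32.4 and 27.3 against 3.66, 24.2 and 17.5 CPM (1.21, SE 0.558, adjusted p = 0.146), and Klre1, at 2.69, 2.28 and 1.75 against 3.83, 7.02 and 7.1 CPM (-1.19, SE 0.562, adjusted p = 0.159), also did not overlap and were not called by edgeR, though DESeq2 called Klre1 lower (-1.40, adjusted p = 0.0294). Klrd1 and Klrc2 overlapped, with levels of 2.2 to 39.5 CPM in Cat-Tg and 1.77 to 39.7 CPM in WT.

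Here too the scaling mattered. Under T cell scaling Nkg7 was still lower in Cat-Tg (-3.27, adjusted p = 2.83e-08) and Ncr1 (-4.36, adjusted p = 0.00419) and Klre1 (-2.73, adjusted p = 0.00212) were called lower, beside 44.5% of all genes called lower and 1.26% higher under it. Klrc1 lost its call (0.92, adjusted p = 0.15), while Klrg1 (-0.16, adjusted p = 0.728) and Klrb1c (-0.58, adjusted p = 0.228) turned sign. So did Klrk1 (-0.33, adjusted p = 0.66), Klrd1 (-0.81, adjusted p = 0.325) and Klrc2 (-0.93, adjusted p = 0.248). With Klrc1, Klrc2 and Klrc3 summed the Klrc1 difference was 1.92 (adjusted p = 0.00723). The call of Klrg1 was lost without Cat-Tg replicate 1 (1.25, adjusted p = 0.0536), Cat-Tg replicate 2 (1.08, adjusted p = 0.0963) or WT replicate 3 (0.80, adjusted p = 0.162). The 8 NK markers outside the set summed to 242 to 322 CPM in Cat-Tg and 625 to 1130 CPM in WT, and myeloid markers to 1700 to 2370 and 2980 to 5050 CPM. Among 5 markers of gamma delta T and invariant NKT cells, which can carry these receptors, 2 were called higher in Cat-Tg (Tcrg-C1 2.65, adjusted p = 0.00127), with a median of 1.05. Of the 12 general T cell markers, 9 were called higher and 0 lower in this comparison, with a median of 1.48. The part of gamma delta T, invariant NKT and other cell types in the differences was not tested.

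From pre-tx to post-tx, CD4+ libraries of both genotypes had more Nkg7 and less Klrb1c. For WT the start is the libraries labelled WT CD4+ pre-tx. Nkg7 rose to 1620, 1630 and 1800 CPM in Cat-Tg (3.36, SE 0.229, adjusted p = 2.02e-07) and to 2610, 1690 and 2490 CPM in WT (2.28, SE 0.218, adjusted p = 3.09e-06). Klrb1c fell to 1.92, 3.27 and 3.98 CPM in Cat-Tg (-4.45, SE 0.395, adjusted p = 2.29e-06) and to 5.09, 7.54 and 5.35 CPM in WT (-2.29, SE 0.358, adjusted p = 0.000295). These ranges did not overlap with those of pre-tx libraries. Of all genes, 26.7% rose and 30.1% fell without overlap in Cat-Tg, and 20.7% and 23.2% in WT. In WT, Klrc1 rose to 32.7, 75.3 and 107 CPM (4.31, SE 0.528, adjusted p = 3.17e-05) and Klrg1 to 64.9, 55.4 and 56.1 CPM (2.18, SE 0.394, adjusted p = 0.000963), while Ncr1 fell to 1.03, 0.66 and 0 CPM (-4.40, SE 1.15, adjusted p = 0.0114). The 0 in WT replicate 3 allows up to 0.0677 CPM, the value of 3 counts in that library. In Cat-Tg post-tx, Klrc1 was at 14.9, 41.6 and 53.3 CPM (0.69, SE 0.46, adjusted p = 0.233) and Klrg1 at 39, 50.5 and 84.2 CPM. The called counts were 1 higher and 1 lower of the 9 in Cat-Tg, beside 13.2% and 27.7% of all genes, and 3 higher and 2 lower in WT, beside 13% and 9.02%. Klrk1, Klrd1, Klrc2 and Klre1 were called in neither genotype under TMM scaling.

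T cell scaling kept these CD4+ changes except 2 in WT, where Klrg1 was at 0.85 (adjusted p = 0.0699) and Nkg7, at 0.90 (adjusted p = 9.82e-04), was below the fold threshold. Under it Klrc1 (1.33, adjusted p = 0.045) and Klrg1 (1.18, adjusted p = 0.0205) were also called higher in Cat-Tg, beside 24.5% of all genes, and Klre1 was called lower in WT (-2.41, adjusted p = 0.00511), beside 47.2%. Cat-Tg post-tx replicate 1 had the lowest level of Klrc1, Klrd1, Klrk1, Klrg1, Klrc2, Klre1, Klrb1c and Nkg7 in its group and the lowest total count of the series, 11135713. None of the changes named for CD4+ libraries across time lost its call when a library was left out.

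On day 7 post-tx, Klrb1c was the gene of the 9 that was called between Cat-Tg and WT CD4+ libraries, at 1.92, 3.27 and 3.98 against 5.09, 7.54 and 5.35 CPM (-1.19, SE 0.353, adjusted p = 0.0426). In this comparison 6.4% of all genes were called lower. The call was lost in 5 of the 6 fits with a library left out (each but WT replicate 3, -1.38 to -0.95, adjusted p up to 0.187), and with DESeq2 size factors, T cell scaling, limma-voom or no filter (-1.07 to -0.79). Nkg7 was at 1620, 1630 and 1800 against 2610, 1690 and 2490 CPM (-0.65, SE 0.209, adjusted p = 0.0597). Of the 9 log2 fold changes 8 were below 0, with a median of -0.65 against -0.19 for all genes. Under T cell scaling Klrk1 (0.13), Klrg1 (0.16) and Ncr1 (1.16) were above 0 and the others below, with a median of 0.22 for all genes. Myeloid markers summed to 6320 to 7870 CPM in Cat-Tg and 1110 to 1730 CPM in WT CD4+ post-tx libraries, and the 8 NK markers to 889 to 943 and 161 to 259 CPM, mainly Tyrobp and Fcer1g. Klra8, an NK marker, was at 0 in all 3 WT libraries. The part of such cells in the levels of the 9 genes was not tested.

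The Cat-Tg effect in CD4+ libraries differed between post-tx and pre-tx for 4 of the 9 genes. It was lower post-tx for Klrc1 (-3.62, SE 0.673, adjusted p = 0.00187), Klrb1c (-2.16, SE 0.492, adjusted p = 0.00662) and Klrg1 (-1.62, SE 0.537, adjusted p = 0.042), and higher for Nkg7 (1.08, SE 0.296, adjusted p = 0.0179). Of all genes, 14% had a negative and 7.2% a positive called interaction. Under T cell scaling Nkg7 was at 3.05 (adjusted p = 6.24e-07), while Klrc1 (-1.70, adjusted p = 0.0753) and Klrb1c (-0.21, adjusted p = 0.818) lost their calls and Klrg1 changed sign (0.32, adjusted p = 0.69). That scaling also called Ncr1 (5.52, adjusted p = 0.00639), as DESeq2 did (3.91, adjusted p = 0.0206), and Klre1 (2.47, adjusted p = 0.0283), beside 38.1% of all genes with a positive and 1.36% with a negative call. The call of Klrg1 was lost in 11 of 12 fits with a library left out, each but Cat-Tg post-tx replicate 3 (-1.95 to -0.84 over the 12), and that of Nkg7 without WT post-tx replicate 2 (0.94, adjusted p = 0.053). DESeq2, DESeq2 size factors and no filter also ended the call of Klrg1.

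**Figure D3:**
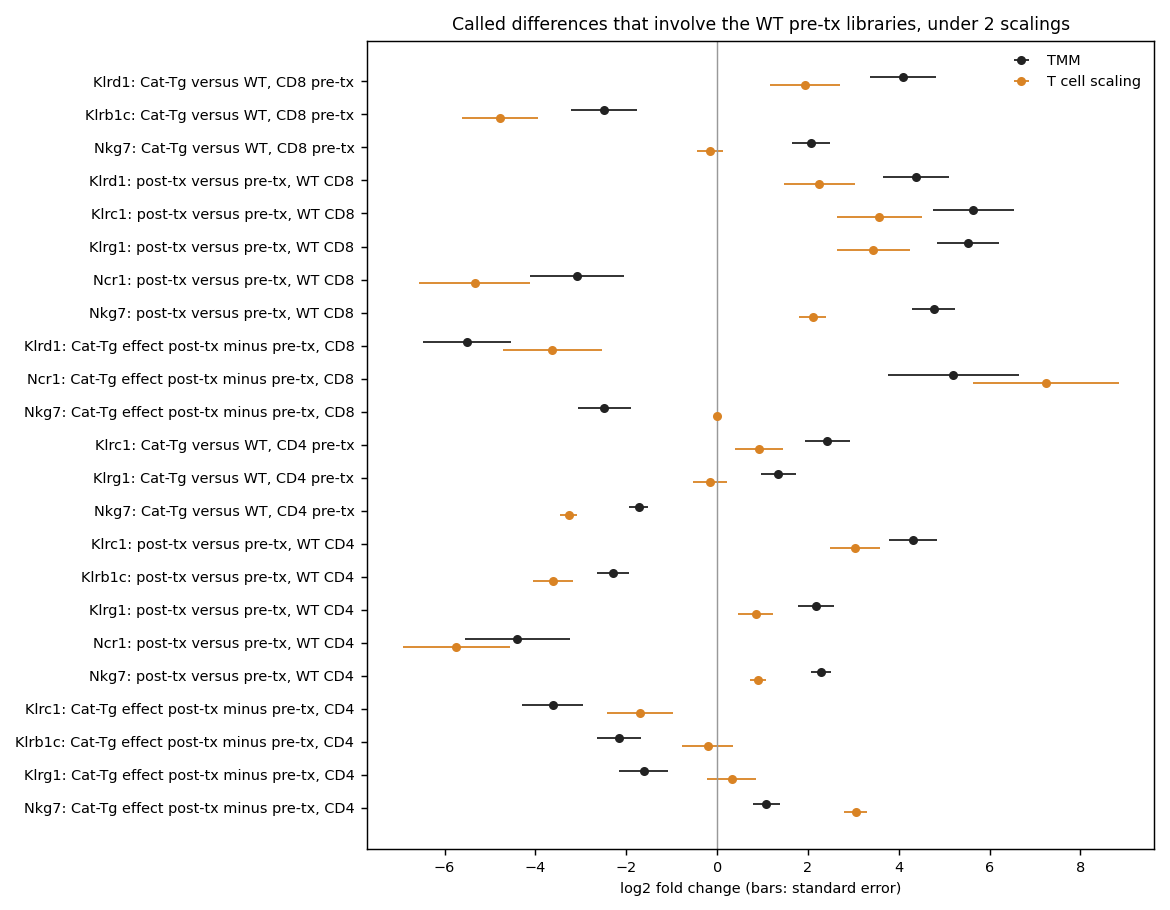
Called differences of the 9 genes in the 6 comparisons that use libraries labelled WT pre-tx, as log2 fold change (x axis) with its standard error, by TMM scaling (black) and by T cell scaling (orange; no bar is drawn at 0.00). Klrd1 and Ncr1 keep their sign under both scalings, while Nkg7 in CD8+ pre-tx goes from 2.07 to -0.16 and Klrg1 in CD4+ pre-tx from 1.35 to -0.16.

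CD8+ and CD4+ libraries were compared within each genotype and time, over the 19076 genes tested in all 24 libraries. By the methods both cell types were sorted from each mouse, so the groups compared share mice, but the labels do not say that a replicate number stands for a mouse. The values below are from the fit without a mouse term, and those with one follow. In Cat-Tg pre-tx libraries Klrd1 was higher in CD8+ (339, 429 and 266 against 29.4, 39.5 and 22.3 CPM, 3.5, SE 0.77, adjusted p = 0.0138), as was Nkg7 (1430, 1030 and 1300 against 132, 127 and 132 CPM, 3.26, SE 0.354, adjusted p = 4.03e-06). Klrb1c (11.1, 1.8 and 7.85 against 46.4, 41.8 and 73 CPM, -2.96, SE 0.587, adjusted p = 0.00542) and Klrg1 (6.47, 8.9 and 3.46 against 25.3, 42.2 and 26.1 CPM, -2.31, SE 0.531, adjusted p = 0.02) were lower in CD8+. All 4 were separated without overlap, beside 8.05% of all genes higher and 9.62% lower in CD8+ without overlap. Of all genes 0.367% were called higher and 1.16% lower. In Cat-Tg post-tx libraries all 9 genes were higher in each CD8+ than in each CD4+ library, as were 12.5% of all genes, and 4 passed the threshold, beside 1.34% of all genes called higher. These were Klre1 (13.6, 10.9 and 11.4 against 1.54, 1.99 and 2.3 CPM, 2.62, SE 0.608, adjusted p = 0.00822), Klrc1 (2.40, SE 0.69, adjusted p = 0.0374), Klrb1c (2.17, SE 0.573, adjusted p = 0.0217) and Nkg7 (1.86, SE 0.335, adjusted p = 0.000784). Klrk1 (2.19, SE 0.776, adjusted p = 0.104) and Klrd1 (1.83, SE 0.72, adjusted p = 0.152) did not, though DESeq2 called both (adjusted p = 0.0218 and 0.0471) and 8 of the 9 in all. DESeq2 called 2.86% of all genes higher in this comparison. Klrb1c was thus called lower in CD8+ than in CD4+ Cat-Tg libraries pre-tx and higher post-tx. Klrg1, lower pre-tx, stood at 142 to 186 CPM in CD8+ and 39 to 84.2 CPM in CD4+ libraries post-tx. The 8 NK markers outside the set summed to 33.9 to 83.6 CPM in CD8+ against 242 to 322 CPM in CD4+ Cat-Tg libraries pre-tx and to 84.4 to 117 against 889 to 943 CPM post-tx. These sums include Tyrobp and Fcer1g, which myeloid cells also express, and 7 of 11 myeloid markers were called lower in CD8+ at both times. Of all 11 NK markers, which include Klrb1c, Klre1 and Ncr1, 0 were called higher and 3 lower in CD8+ pre-tx, with a median of -0.3. Post-tx 2 were higher and 2 lower (Klre1 2.62, Tyrobp -3.7), with a median of 1.48. The part of NK and myeloid cells in these differences was not tested.

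In WT post-tx libraries 6 of the 9 genes were higher in CD8+: Klrc1 (2.80), Klrd1 (2.79), Klrk1 (2.50), Klrg1 (1.93), Klre1 (1.85) and Nkg7 (1.76), with adjusted p from 0.000864 for Nkg7 to 0.0388 for Klre1, beside 5.71% of all genes called higher. Klrd1, Klrg1 and Nkg7 were separated without overlap, and Klrk1, Klrc1 and Klre1 overlapped through CD8+ replicate 2. Of all genes, 8.79% were higher in CD8+ without overlap. Between the libraries labelled WT CD8+ and WT CD4+ pre-tx, 0 of the 9 were called by edgeR, DESeq2 or limma-voom, with 3 at an unadjusted p under 0.05 (Klrc1, Klrg1 and Nkg7), and 7 of all 19076 genes were called. These are the groups that the coreceptors did not separate.

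Many of the CD8+ to CD4+ calls were lost with a mouse term, under T cell scaling, by limma-voom, without the filter or when a library was left out. With same-numbered libraries taken as a pair from 1 mouse (replicate block), the 4 calls in Cat-Tg pre-tx held. In Cat-Tg post-tx Klrb1c (2.17, adjusted p = 0.0456) and Nkg7 (1.86, adjusted p = 0.00935) held, and Klrc1 (2.58, adjusted p = 0.0888) and Klre1 (2.63, adjusted p = 0.062) did not. In WT post-tx 1 of 6 held, Nkg7 (1.57, adjusted p = 0.0256), while Klrd1 (2.64, adjusted p = 0.0621), Klrg1 (1.49, adjusted p = 0.0761), Klrc1 (2.18, adjusted p = 0.153), Klre1 (1.51, adjusted p = 0.307) and Klrk1 (1.74, adjusted p = 0.355) did not. T cell scaling ended the calls of Klrd1 in Cat-Tg pre-tx (3.24, adjusted p = 0.0505), of Klre1, Klrc1 and Klrb1c in Cat-Tg post-tx (1.85, 1.60 and 1.37) and of Klrk1, Klrg1 and Klre1 in WT post-tx (2.33, 1.76 and 1.56). Limma-voom ended those of Klrg1 in Cat-Tg pre-tx, Klrb1c in Cat-Tg post-tx, and Klrk1 and Klre1 in WT post-tx. Without the filter, Klrd1 in Cat-Tg pre-tx, Klrc1 in Cat-Tg post-tx, and Klrk1, Klrd1 and Klre1 in WT post-tx were not called. Among Cat-Tg pre-tx libraries, the call of Klrd1 was lost without any of the CD4+ libraries (3.33 to 3.69, adjusted p = 0.0626 to 0.102), and that of Klrg1 without CD8+ replicate 1 or 3 or CD4+ replicate 2 (-2.37 to -2.04). Post-tx in Cat-Tg, that of Klrc1 was lost without any library (2.21 to 2.77) and that of Klrb1c without CD4+ replicate 1 or 2 or CD8+ replicate 2 or 3 (2.11 to 2.21). Post-tx in WT, the call of Klrd1 was lost without CD4+ replicate 1 (2.36), that of Klrc1 without CD8+ or CD4+ replicate 1 (1.82 and 2.45), that of Klrk1 without CD8+ replicate 1 or any CD4+ library (1.37 to 2.67), that of Klrg1 without CD8+ replicate 1 or CD4+ replicate 2 or 3 (1.01 to 1.90), and that of Klre1 without any library but CD8+ replicate 2 (1.37 to 2). The call of Nkg7 held in all of these fits. Without CD8+ replicate 2, the library that stood apart, the same 6 WT post-tx differences were 3.56, 3.44, 3.28, 2.61, 2.53 and 1.41, in the order named.

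**Figure D4:**
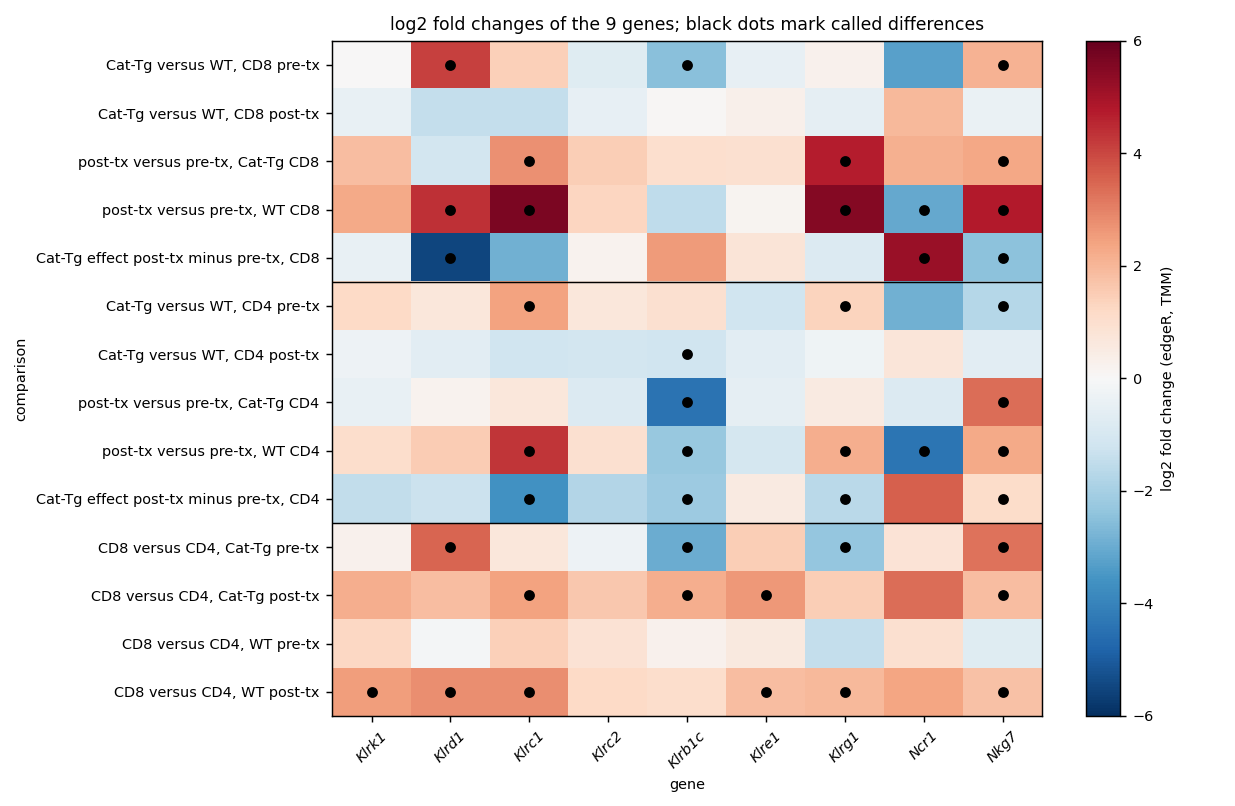
Heat map of the log2 fold changes of the 9 genes (x axis) in the 14 comparisons (y axis), red for higher and blue for lower in the group named first, with black dots on called differences. Klrg1, Klrc1 and Nkg7 are called higher post-tx in CD8+ libraries of both genotypes, and no gene is called between Cat-Tg and WT CD8+ post-tx or between the libraries labelled WT CD8+ and WT CD4+ pre-tx.

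Genes around these receptors were counted by lists, under TMM scaling, so counts that involve WT pre-tx libraries carry the make-up of those libraries. Of 19 other lectin receptors of the NK gene complex, 14 were tested in CD8+ libraries. From pre-tx to post-tx 1 was called higher and 2 lower in Cat-Tg (Klrb1b 6.47, Klra9 -8.07) and 0 higher and 4 lower in WT (Klra4 -6.66). None was called between the genotypes in CD8+ libraries at either time, with medians of -1.1 pre-tx and -0.52 post-tx. In CD4+ libraries 12 were tested, and 4 were called lower and 0 higher post-tx in each genotype, with Klra4 at -6.69 in Cat-Tg and Klra8 at -10.12 in WT. Between genotypes in CD4+ libraries, 2 were called lower and 0 higher in Cat-Tg pre-tx (Klra8 -3.98, adjusted p = 0.0358), and 0 were called post-tx. Fitted values of such low genes are no bound on the true change. In CD8+ against CD4+ libraries, Klra7 was higher in Cat-Tg both pre-tx (4.41, adjusted p = 0.0455) and post-tx (4.65, adjusted p = 0.0141), and Klra2 was lower post-tx (-3.92, adjusted p = 0.00981). In WT 0 were called pre-tx, and 3 were higher and 0 lower post-tx (Klra8 6.43, adjusted p = 0.0202). Klra8 was at 0 in all 3 WT CD4+ post-tx libraries.

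Of 16 adaptors and signalling genes, 15 were tested in CD8+ libraries, and 4 were called higher and 6 lower in Cat-Tg than in WT pre-tx. The extremes were Sh2d1a, the adaptor SAP (2.76, adjusted p = 0.0118), and Syk, a kinase abundant in B cells (-5.89, adjusted p = 0.0018). Post-tx 1 was called in CD8+ libraries, Inpp5d, the phosphatase SHIP-1 (1.89, adjusted p = 0.0257). In CD4+ libraries pre-tx 3 were higher and 7 lower, from Sh2d1a (3.59) to Plcg2 (-4.09), and post-tx 5 were higher and 1 lower, from Sh2d1b1 (2.25, adjusted p = 0.0167) to Sh2d1a (-1.17, adjusted p = 0.0131). Of 11 genes listed as receptor ligands, Clec2d, which encodes a ligand of an NKR-P1 receptor, was called higher in Cat-Tg pre-tx. This held in CD8+ (3.83, adjusted p = 0.00734) and CD4+ (2.95, adjusted p = 0.00352) libraries. From pre-tx to post-tx in Cat-Tg CD4+ libraries 1 rose, H2-T23, which encodes Qa-1 (1.27, adjusted p = 0.000871). In that comparison 4 fell, H60c, an NKG2D ligand, the furthest (-3.64, adjusted p = 0.0147), with a median of -1.36 over the 11. No ligand was called between genotypes post-tx in either cell type.

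Of 12 other receptors of NK and cytotoxic T cells, 5 were higher and 0 lower post-tx in Cat-Tg CD8+ and 8 higher and 1 lower in WT CD8+ libraries, led by Tigit, an inhibitory receptor, in both (4.74 and 4.72). In CD4+ libraries 6 were higher and 2 lower in Cat-Tg and 9 higher and 0 lower in WT. Between genotypes pre-tx, 3 were higher and 1 lower in Cat-Tg CD8+ (Crtam 3.59, Slamf7 -1.64) and 6 higher and 1 lower in Cat-Tg CD4+ libraries (Cd226 3.33, Cd244a -1.35). Post-tx 0 were called in CD8+ libraries, and 2 were higher and 4 lower in CD4+ libraries, from Fcgr3, an Fc receptor (2.16, adjusted p = 0.00296), to Crtam (-3.86, adjusted p = 0.00654). All 6 cytotoxic granule genes were higher post-tx in CD8+ libraries of both genotypes, with Gzma at 7.51 in Cat-Tg and Gzmk at 11.42 in WT, and all 6 were higher in CD8+ than CD4+ libraries post-tx in both. Between genotypes pre-tx, 2 granule genes were higher and 0 lower in Cat-Tg CD8+ libraries (Gzmk 7.49). In CD4+ libraries 1 was higher and 4 lower in Cat-Tg (Gzmk 4.13, Gzma -3.36), and post-tx 2 were lower (Gzmk -1.53). Of 7 transcription factors, 5 were higher post-tx in Cat-Tg CD8+ (Prdm1 4.92) and 2 in WT CD8+ (Tbx21 2.96), where Zeb2 was lower (-3.49). Cat-Tg pre-tx libraries had 0 factors higher and 2 lower than WT in CD8+ (Zeb2 -3.09), and 1 higher and 1 lower in CD4+ (Id2 2.14, Eomes -2.12). No factor was called between genotypes post-tx in either cell type.

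Over the 24 libraries the 9 genes did not form a single profile. On log2 CPM, Pearson's r was 0.85 between Klrk1 and Klrc2, 0.81 between Klrk1 and Klrc1, 0.80 between Klrc1 and Klrg1 and 0.77 between Klrd1 and Klrc1, while Klrb1c had r of -0.58 with Nkg7 and 0.49 with Ncr1, and Klre1 had 0.57 with Ncr1. Klrc1 and Klrc2 (0.74) share reads. The libraries share their group, depth and cell make-up, so these are descriptions. The genes outside the set most like Nkg7 were Ctsw, a lymphocyte protease (r = 0.977), Tagln2 (0.954) and Ggt1 (0.953). Those most like Klrg1 were S100a4 (0.928), Pdcd1, the PD-1 gene (0.923), and D630039A03Rik (0.915), and those most like Klrc1 were Ran (0.953), Rnaseh2b (0.946) and Atp5j (0.94). Klrd1 was most like Atp5c1 (0.894), Ndufb3 (0.887) and Rnf138 (0.884), Klrk1 like Nsmce2 (0.85), Srsf7 (0.843) and Tipin (0.843), and Klrc2 like Med7 (0.83), Rfc3 (0.825) and Tmem29 (0.819). For Ncr1 they were Cma1, on the NK marker list (0.791), Lat2 (0.758) and M1ap (0.753), for Klre1 Bid (0.803), Klra7 (0.796) and Cd8a (0.78), and for Klrb1c Rgs13 (0.749), Spns2 (0.739) and Ranbp17 (0.733).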

How the data were processed

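RNA from 24 libraries was amplified with a SMART-Seq kit that keeps no strand and sequenced. Per the labels and file headers, the authors quantified reads with kallisto 0.46.2 and deposited, for each library, estimated counts per transcript and TPM. TPM values that the authors deposited were summed per gene and used for levels per length only. The labels name the build mm9, while transcript identifiers were matched to GENCODE M21 (GRCm38) for 116374 of 117497 transcripts, which held 99.57 to 99.75% of counts. Estimated counts were summed to genes and rounded.

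Genes over 1 CPM in at least 3 libraries were tested with edgeR 4.0.16 (R 4.3.3, TMM, robust quasi-likelihood fits) in the 12 CD8+, the 12 CD4+ and all 24 libraries, where DESeq2 1.42.0 and limma 3.58.1 (voom) served as alternatives. The study's methods analysed TPM with limma per cell type instead. Standard errors were taken from the size of each log2 difference and the root of its F statistic. The procedure was tested on simulated data. Total counts ranged from 11135713 to 50519825 per library, and limits of 3 counts cover counting error only. Same-numbered libraries did not deviate together, the labels do not tie a number to a mouse, and no 2 libraries were identical.

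All 9 genes were tested in every comparison, and each of the 9 that was called was named. Genes of the 9 that were not called were named in some comparisons only. Of each list at most the highest and the lowest called gene were named, and for each of the 9 the 3 protein-coding genes of highest Pearson correlation. The members and lists were chosen with earlier results of these data known. The summed Klrc counts were an alternative added after the data were seen.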

Additional observations from a re-analysis of the deposited data

Results flagged for a closer look

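The Cat-Tg to WT difference was not the same at both times for 3 of the 9 genes in CD8+ libraries and 4 of the 9 in CD4+ libraries, by the interaction test in edgeR, beside 10.7% and 21.2% of all genes. In CD8+ libraries it was lower post-tx than pre-tx by -5.5 for Klrd1 (adjusted p = 0.00241) and -2.48 for Nkg7 (adjusted p = 0.0132), and higher by 5.2 for Ncr1 (adjusted p = 0.0311), all on the log2 scale. In CD4+ libraries it was lower post-tx by -3.62 for Klrc1 (adjusted p = 0.00187), -2.16 for Klrb1c (adjusted p = 0.00662) and -1.62 for Klrg1 (adjusted p = 0.042), and higher by 1.08 for Nkg7 (adjusted p = 0.0179). Each of these values includes the libraries labelled WT pre-tx. T cell scaling ended 4 of the 7 calls, those of Nkg7 in CD8+ and of Klrc1, Klrb1c and Klrg1 in CD4+ libraries, and the call of Klrg1 was lost in 11 of 12 fits with a library left out.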

How the results depend on the processing

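The numbers of the 9 genes called changed by more than 1.5 times under these settings. With a minimum log2 difference of 2 they were 1 (CD4+ pre-tx), 0 (CD4+ post-tx), 2 (CD4+ interaction) and 3 (CD8+ against CD4+, WT post-tx). The share of all genes at this minimum was not counted. T cell scaling gave 6 (CD8+ pre-tx), 0 (CD4+ post-tx), 4 (Cat-Tg CD4+ across time), 1 and 3 (CD8+ against CD4+, Cat-Tg and WT post-tx). Of all genes it called 0.282% higher and 58.2% lower in CD8+ pre-tx, and 24.5% and 18.7% in Cat-Tg CD4+ across time. In CD8+ against CD4+ it called 0.273% of all genes higher in Cat-Tg post-tx and 2.52% in WT post-tx. DESeq2 gave 5 (CD4+ pre-tx) and 8 (CD8+ against CD4+, Cat-Tg post-tx). Of all genes it called 11.2% higher and 10.5% lower in CD4+ pre-tx. In CD8+ against CD4+, Cat-Tg post-tx, it called 2.86% higher. DESeq2 size factors, limma-voom and no filter each gave 0 for CD4+ post-tx. No filter gave 3 for CD8+ against CD4+ in WT post-tx, beside 2.59% of all genes called higher. With the replicate block, 2 and 1 were called for CD8+ against CD4+ in Cat-Tg and WT post-tx. Of all genes, 0.645% and 3.23% were called higher there with the block. Ncr1 lost its call with it in WT CD8+ across time (-2.82) and in the CD8+ interaction (4.86). Same-numbered libraries did not deviate together (correlations of -0.263 to 0.176), and the labels do not tie a number to a mouse.

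T cell scaling brought Nkg7 to 0.00 in the CD8+ interaction. Among the signs it reversed were those of Nkg7 (-0.16) and Klrc1 (-0.79) in CD8+ pre-tx and of Klrg1 in the CD4+ interaction (0.32). In CD4+ pre-tx it reversed Klrg1 (-0.16), Klrb1c (-0.58), Klrk1 (-0.33), Klrd1 (-0.81) and Klrc2 (-0.93). Leaving out a library turned Nkg7 in CD8+ post-tx (-0.65 to 0.17). With a library left out, Cat-Tg against WT gave 2 to 3 calls in CD8+ pre-tx, 0 to 0 in CD8+ post-tx, 2 to 3 in CD4+ pre-tx and 0 to 1 in CD4+ post-tx. Of all genes, 1.81 to 3.98% were called higher and 2.32 to 3.47% lower in the CD8+ pre-tx fits. In CD4+ pre-tx these shares were 6.88 to 11.7% and 4.04 to 8.8%, and in CD4+ post-tx 2.11 to 7.63% were called lower. Post-tx against pre-tx gave 2 to 2 in Cat-Tg CD8+, 4 to 5 in WT CD8+, 2 to 2 in Cat-Tg CD4+ and 5 to 6 in WT CD4+, the interactions 2 to 4 in each cell type, and CD8+ against CD4+ 2 to 4 (Cat-Tg pre-tx), 2 to 4 (Cat-Tg post-tx), 0 to 0 (WT pre-tx) and 2 to 6 (WT post-tx). Across time 4.36 to 7.27% of all genes were called higher in Cat-Tg CD8+, and 8.68 to 13.3% higher and 7.05 to 13.4% lower in WT CD8+. In Cat-Tg CD4+ these shares were 11.2 to 17.6% and 19.7 to 26.9%, and in WT CD4+ 8.11 to 13.5% and 5.15 to 9.83%. The interactions gave 3.53 to 9.72% positive and 2.54 to 6.13% negative (CD8+), and 5.35 to 11.9% and 6.27 to 13.8% (CD4+). CD8+ against CD4+ gave 0.181 to 0.524% of all genes higher and 0.67 to 1.13% lower in Cat-Tg pre-tx. Post-tx it gave 0.604 to 1.63% higher in Cat-Tg and 3.34 to 10.1% higher in WT. With fewer samples the test has less power, and other causes of lost calls were not tested.

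Over all genes, T cell scaling moved the calls from 1431 to 9336 (CD8+ pre-tx), 3763 to 10313 (WT CD8+ across time), 1709 to 5978 (CD8+ interaction), 3137 to 7891 (CD4+ pre-tx), 3802 to 8484 (WT CD4+ across time), 3659 to 6798 (CD4+ interaction), 1115 to 1881 (CD8+ against CD4+, Cat-Tg post-tx) and 7 to 47 (WT pre-tx). DESeq2 called 2574, 1304, 4255 and 2863 genes in CD8+ pre-tx, CD8+ post-tx (266 by edgeR), Cat-Tg CD8+ across time (2226) and the CD8+ interaction, and 614, 1876 and 422 for CD8+ against CD4+ in Cat-Tg pre-tx (291), Cat-Tg post-tx and WT pre-tx. CD8+ post-tx had 541 without a filter and 110 with the block. CD8+ against CD4+ had 2 by limma-voom and 3 with the block in WT pre-tx, and 1602 with the block in WT post-tx (2441). Depth limits values near the level of 3 counts, 0.0516 to 0.288 CPM, which Ncr1 reached in single libraries.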
